A study of Arabidopsis thaliana with 90 samples.

Results

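The histone variant H2A.Z and the histone modification H3K4me1 (monomethylation of lysine 4 of histone H3) were compared in wild-type Arabidopsis thaliana seedlings by chromatin immunoprecipitation with sequencing (ChIP-seq). The comparison rests on 6 of the 90 libraries of the series, chosen by antibody and genotype: 3 biological replicates with an antibody against H2A.Z and 3 with an antibody against H3K4me1. All 6 came from whole 9-day-old seedlings of the Col-0 ecotype raised on MS medium under continuous white light. No transgene, mutation or treatment was given for these plants. Whole seedlings mix many cell types, so bases under both marks may come from different cells, and fewer marked cells cannot be told apart from weaker marking per cell. Libraries of H3K4me2, H3K4me3, total RNA polymerase II, its forms phosphorylated at serine 5 (Ser5P) or serine 2 (Ser2P) of the C-terminal repeat, and WDR5A-HA, 3 each, served for reference. WDR5A-HA was precipitated through its HA tag and is labelled Col-0, although an untagged Col-0 plant carries no HA epitope.

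H2A.Z replaces canonical H2A in a subset of nucleosomes. It is deposited by the SWR1 complex, and in plants it is known both at the nucleosomes just downstream of transcription start sites and spread over the bodies of many genes that respond to the environment. H3K4me1 is one of 3 methylation states of the same lysine. In plants it is a mark of the bodies of transcribed genes, placed inward of the trimethylated 5′ part and known to be written by methyltransferases that include ATXR7, ATX1 and ATX2.

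The data were lists of peaks, that is, stretches of chromosome where a library was enriched. The H2A.Z lists held 27094, 26048 and 25910 peaks in replicates 1 to 3, and the H3K4me1 lists held 14403, 14517 and 14422. H3K4me1 thus had fewer peaks, and they were wider. The median width of H2A.Z peaks was 544, 544 and 549 bp, and that of H3K4me1 peaks was 821, 908 and 907 bp. The widths of the 2 groups did not overlap, and the difference of 333 ± 43.3 bp (SD over 9 pairs of libraries) gave an exact two-sided permutation p of 0.1, the smallest that 3 against 3 libraries allow. On chromosomes 1 to 5, H2A.Z peaks covered 15.6 ± 0.295 Mb (SD, n = 3) and H3K4me1 peaks 17.2 ± 1.16 Mb, or 13.1% and 14.4% of the sequence. A pair of libraries of the same mark shared 78.8% to 79.4% of their joint bases for H2A.Z and 71.2% to 75.2% for H3K4me1. H3K4me1 replicate 1 covered the least, 15.9 Mb against 18.0 and 17.7 Mb. The median fold enrichment per peak, as the authors' caller gave it, was 3.44 ± 0.00194 for H2A.Z and 2.40 ± 0.126 for H3K4me1. The lists give no read totals. The depth behind these calls is therefore unknown, and a stretch without a peak is not shown to lack the mark.

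The peaks of the 2 marks hardly shared any bases, although they lay close together in the same genes. Of all H3K4me1 bases, 0.844% ± 0.0986 (SD over 9 pairs of libraries, which share libraries and are not independent) were also under H2A.Z, where H2A.Z covered 13.1% of the chromosomes. Of all H2A.Z bases, 0.935% ± 0.156 were under H3K4me1, where H3K4me1 covered 14.4%. The shared stretches added up to 110 to 168 kb per pair. Both marks were mainly inside annotated protein-coding genes, which hold 54.1% of the chromosomes: 87.6% ± 0.296 of H2A.Z bases and 99.2% ± 0.0430 of H3K4me1 bases (n = 3). Within gene bodies alone, 21.2% of bases were under H2A.Z and 26.5% under H3K4me1, yet 0.815% ± 0.0949 of H3K4me1 bases in bodies were under H2A.Z. Of H2A.Z bases in bodies, 1.02% ± 0.169 were under H3K4me1. Restriction to genes thus moved both shares by less than the spread over pairs.

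Counted as peaks, 1387 ± 158 H2A.Z peaks per pair of libraries (5.27% ± 0.595) shared at least 1 base with an H3K4me1 peak, and 9.56% ± 1.08 of H3K4me1 peaks shared a base with an H2A.Z peak. These contacts were short, with a median of 66.0 ± 4.77 bp shared. Only 0.40% ± 0.0935 of H2A.Z peaks and 1.36% ± 0.257 of H3K4me1 peaks had at least 50% of their length under the other mark. H3K4me1 peaks that shared no base lay a median of 287 ± 26.6 bp from the nearest H2A.Z peak, and 68.9% ± 2.74 of all H3K4me1 peaks lay within 500 bp of one. In the other direction the median was 1360 ± 94.0 bp, and 37.2% ± 1.66 of H2A.Z peaks lay within 500 bp of H3K4me1. H2A.Z peaks that touched H3K4me1 had a higher median fold enrichment than the rest, 4.81 ± 0.0989 against 3.38 ± 0.00211, and were wider, 672 ± 3.77 against 537 ± 3.57 bp. The rest include peaks outside genes and in genes without H3K4me1, and a wider peak has more bases that can touch another. H3K4me1 peaks that touched H2A.Z had the same median fold enrichment as the rest, 2.40 in both.

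Other features shared many more bases with H2A.Z. Of H2A.Z bases, 58.5% ± 0.731 were under H3K4me3, 56.1% ± 1.08 under H3K4me2, 28.0% ± 2.38 under WDR5A-HA and 17.5% ± 1.15 under total RNA polymerase II. The shares under Ser5P and Ser2P polymerase were 12.8% ± 1.07 and 10.3% ± 1.04. On the H3K4me1 side, H2A.Z was again the lowest of the 7, next to WDR5A-HA at 1.12% ± 0.196, whose pairs overlapped its range. H3K4me1 bases were under H3K4me3 for 3.76% ± 0.248, Ser5P for 5.87% ± 0.387, total polymerase for 7.94% ± 0.475, Ser2P for 13.2% ± 1.22 and H3K4me2 for 16.2% ± 2.43. The features cover different totals of sequence, so these shares are descriptions of each list and not of how strongly 2 features are tied.

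At the scale of whole genes the marks often met: nearly all genes called for H3K4me1 were also called for H2A.Z, while more than 50% of the genes called for H2A.Z were not called for H3K4me1. A gene was called for a mark when peaks covered at least 150 bp of its body in all 3 libraries, and "only" further required that the other mark covered no base of the body in any library. Of 27432 nuclear protein-coding genes, 20602 (75.1%) were called for H2A.Z and 9986 (36.4%) for H3K4me1. Both marks were called in 9403 genes (34.3%), H2A.Z only in 8916 (32.5%), H3K4me1 only in 339 (1.24%) and neither in 4257 (15.5%). The remaining 4517 genes (16.5%) had calls that did not repeat over the libraries. Of the H3K4me1 genes, 94.2% also carried H2A.Z, against 64.2% of the 17446 genes without an H3K4me1 call. Of the H2A.Z genes, 45.6% also carried H3K4me1, against 8.54% of the 6830 others. H2A.Z was thus called without an H3K4me1 call in 11199 genes, more than the 9403 with both, and H3K4me1 without an H2A.Z call in 583. Genes with H3K4me1 and no trace of H2A.Z were thus the rare class, and genes with H2A.Z and no H3K4me1 a common one.

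Gene length separated the classes. Genes with both marks had a median length of 3032 bp, those with H3K4me1 only 2467 bp, those with H2A.Z only 1598 bp and those with neither 1090 bp. Among the 4373 genes under 1000 bp, 4 genes (0.0915%) carried both marks and 41.1% carried H2A.Z only. The share with both was higher in each longer class, going from 2.69% at 1000 to 1500 bp to 20.8% at 1500 to 2000 bp, 47.4% at 2000 to 3000 bp, 62.7% at 3000 to 4000 bp and 75.1% of the 3250 genes of 4000 bp and over. H2A.Z only was most common at 1000 to 1500 bp (57.8% of 3942 genes) and least common, at 10.7%, in the longest class. H3K4me1 only stayed between 0.480% and 1.69% in all 6 classes. The direction of the comparison depended on length. Under 1000 bp, 0.217% of the 1845 genes with H2A.Z carried H3K4me1 against 0.989% of the 2528 without, and at 1000 to 1500 bp the shares were close, 3.97% and 2.92%. From 1500 bp upward H3K4me1 was more frequent in genes with H2A.Z: the shares were 27.4% and 8.27% at 1500 to 2000 bp and 71.0% and 25.7% at 3000 to 4000 bp. At 2000 to 3000 bp, 56.3% of the 6256 genes with H2A.Z carried H3K4me1 against 18.24% of the 1173 without, and at 4000 bp and over the shares were 82.6% and 34.2%.

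**Figure D1:**
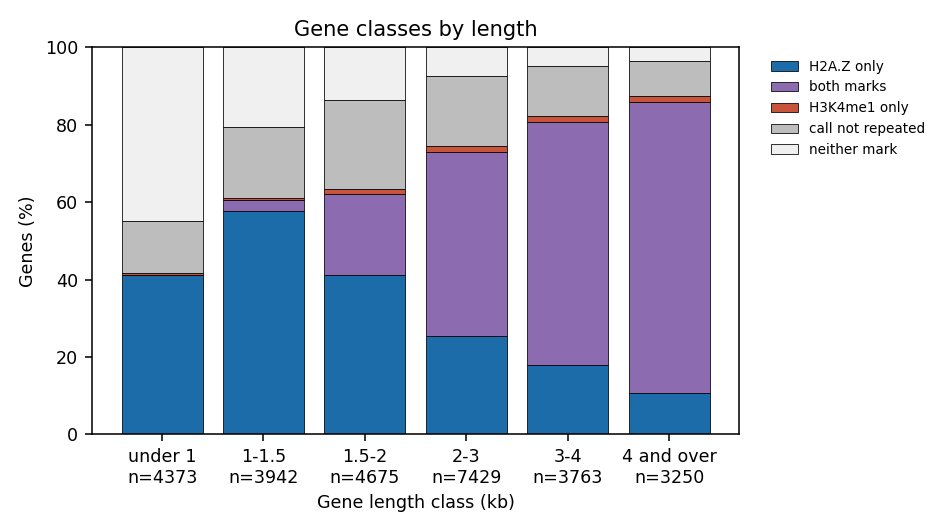
Percent of genes (y axis) in each of 5 classes, by gene length in kb (x axis, with the number of genes); each bar adds up to 100%. Genes with both marks make up 0.0915% of the shortest class and 75.1% of the longest, while H3K4me1 without H2A.Z stays at or under 1.69% throughout.

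The share of genes with H3K4me1 differed more with the extent of H2A.Z than with its presence. Among genes called for H2A.Z with under 25% of the body covered, 77.6%, 80.0% and 79.8% were called for H3K4me1 in its 3 libraries (n = 9472 genes). At 25% to 50% cover the shares were 38.1%, 42.6% and 42.7% (n = 7110), at 50% to 75% they were 3.42%, 4.33% and 4.96% (n = 2864), and at 75% to 100% they were 1.56%, 2.25% and 2.77% (n = 1156). The libraries of neighbouring steps did not overlap. Genes with no H2A.Z base at all sat low as well, at 8.12%, 9.26% and 9.22% (n = 4818), so H3K4me1 was most frequent in genes with a small stretch of H2A.Z. Covered share and length go together: the median lengths of the 4 steps with H2A.Z were 3206, 1961, 1278 and 863 bp. Within genes of 1500 to 3000 bp the order of the first 3 steps was the same: 72.6% ± 1.39, 49.7% ± 3.01 and 7.28% ± 0.851, with 7.77% ± 1.43 at the highest cover and 15.0% ± 1.33 where H2A.Z was absent (SD, n = 3 libraries). Length still fell over the 4 steps with H2A.Z, with medians of 2455, 2053.5, 1882 and 1798.5 bp. Length is thus not fully separated from cover within this band.

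**Figure D2:**
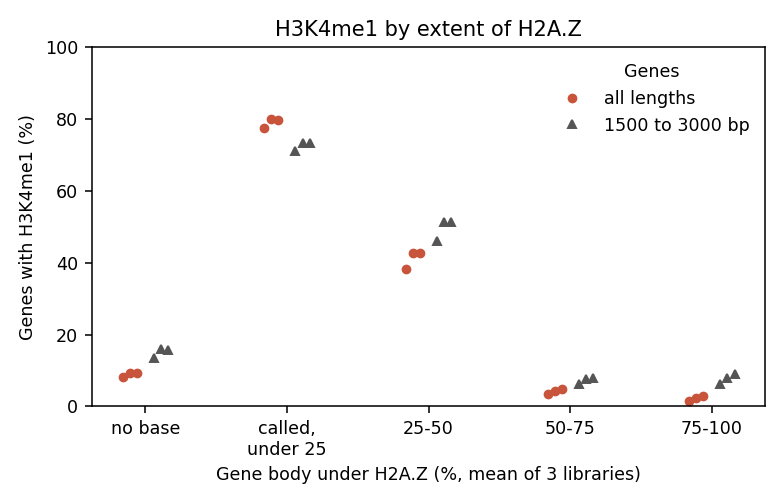
Percent of genes called for H3K4me1 (y axis) by the percent of the gene body under H2A.Z, as the mean of its 3 libraries (x axis); each point is 1 H3K4me1 library, red for genes of all lengths and grey for genes of 1500 to 3000 bp. The points lie between 71.0% and 80.0% where H2A.Z covers under 25% of the body and under 10% where it covers at least 50%.

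Along genes whose direction could be set, the marks sat at different places. Gene direction was taken from H3K4me3, which is known to peak at the 5′ end and is neither of the marks compared: a gene was oriented when the relative position of its highest-scoring H3K4me3 summit was below 0.4 in all 3 H3K4me3 libraries, or above 0.6 in all 3. This gave 13554 oriented genes, 49.4% of all. They include 91.0% of genes with both marks, 52.2% of those with H3K4me1 only, 30.2% of those with H2A.Z only and 3.24% of those with neither. The median relative position of H2A.Z summits, from 0 at the marked 5′ end to 1 at the other, was 0.124, 0.125 and 0.125 in the 3 libraries. That of H3K4me1 summits was 0.496, 0.492 and 0.491. The groups were far apart, by 0.368 of the gene length, with an exact two-sided permutation p of 0.1, the smallest possible. Of H2A.Z summits, 83.0% to 83.7% lay in the first 25% of the gene, 11.8% to 12.2% in the middle 50% and 4.51% to 5.01% in the last 25%. Of H3K4me1 summits, 7.37% to 7.53% lay in the first 25%, 83.7% to 84.2% in the middle and 8.38% to 8.85% in the last 25%. Orientation required an H3K4me3 summit toward 1 end, and 58.5% ± 0.731 of H2A.Z bases were under H3K4me3. The position of H2A.Z in oriented genes, here and below, is thus partly set by that choice, and so is the test of summit position. Over all protein-coding genes, H2A.Z covered a larger mean share of the body than H3K4me1, 25.8% ± 0.466 against 17.0% ± 1.25, again with no overlap of the libraries and an exact permutation p of 0.1. This mean weights short and long genes equally, and the direction turned when bases were counted instead: 21.2% of all gene body bases were under H2A.Z and 26.5% under H3K4me1.

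The average profile showed the same hand-over. In the 8553 oriented genes with both marks, H2A.Z covered 87.5% ± 0.294 of bases at 5% to 10% of the gene length and 44.0% ± 0.245 at 20% to 25%, and reached its lowest value of 0.220% ± 0.0121 at 60% to 65%. H3K4me1 covered 1.41% ± 0.0949 at 5% to 10%, 31.6% ± 1.43 at 20% to 25% and 87.4% ± 2.82 at 50% to 55%, and fell back to 1.15% ± 0.202 in the last 5%. A small second rise of H2A.Z, to 2.35% ± 0.101, was seen at 90% to 95% of the gene. In the 2690 oriented genes with H2A.Z only, H2A.Z reached deeper as a percent of gene length. It had a maximum of 87.8% at 15% to 20%, 39.5% ± 0.539 at 50% to 55% and 20.2% ± 0.984 at 75% to 80%. The median length over the whole class was 1598 bp, against 3032 bp with both marks, so 1 bin spans fewer bp there. In bp, the H2A.Z block nearest the marked 5′ end stopped at a median of 758 ± 2.08 against 626 ± 0.577. In the 177 oriented genes with H3K4me1 only, H3K4me1 had its maximum of 90.7% ± 1.08 at 55% to 60%, near the place it held beside H2A.Z.

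**Figure D3:**
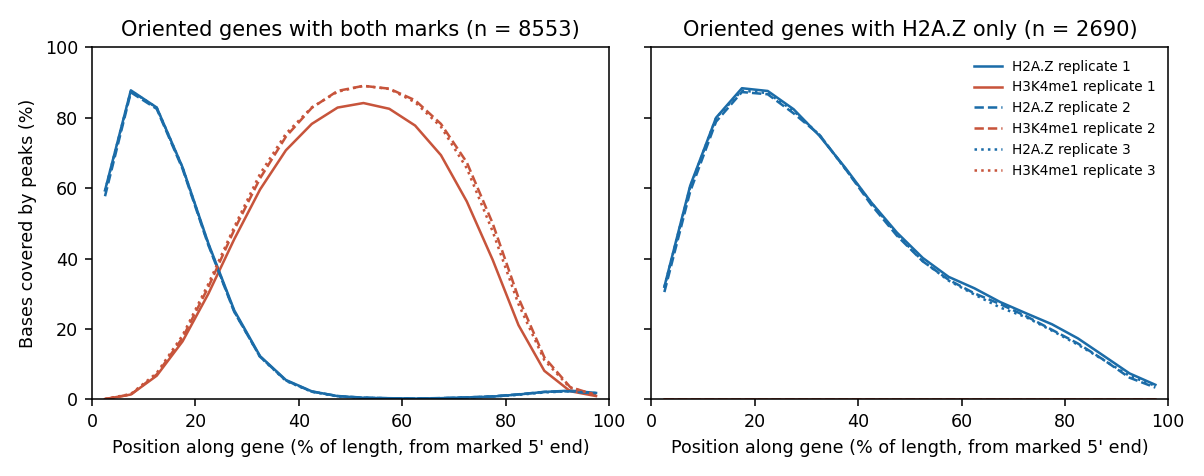
Percent of bases under peaks (y axis) in 20 equal bins along genes from the H3K4me3-marked 5′ end (x axis, percent of gene length), for 8553 oriented genes with both marks (left) and 2690 with H2A.Z only (right); each line is 1 library, H2A.Z in blue and H3K4me1 in red. In genes with both marks H2A.Z is highest at 5% to 10% and H3K4me1 at 50% to 55%. In genes with H2A.Z only, the blue lines stay at 39.5% in the middle of the gene. The 2 classes differ in length, with medians of 3032 and 1598 bp over all genes of each class.

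The edges facing each other were measured in base pairs from the marked 5′ end. In genes with both marks the H2A.Z block nearest that end stopped at a median of 626 ± 0.577 bp (SD, n = 3), and H3K4me1 began at 809 ± 13.6 bp. The gap between them in the same gene had a median of 174 ± 11.6 bp over the 9 pairs of libraries, with quartiles of 78.2 and 296 bp, and in 10.01% ± 0.852 of genes the facing edges overlapped. Chromatin was sheared to fragments of 200 to 500 bp per the labels' protocol, so a gap of this size is below the fragment length and the edges are those of peak calls, not of nucleosomes. The hand-over lay at nearly the same distance in genes of very different lengths. At 1500 to 2000 bp H2A.Z ended at 559 ± 1.00 bp and H3K4me1 began at 717 ± 13.3 bp, and at 4000 bp and over the values were 648 ± 2.65 and 841 ± 18.1 bp. The span of H3K4me1 took up the added length, growing from 413 ± 32.7 bp at 1000 to 1500 bp to 983 ± 44.2 bp at 2000 to 3000 bp and 3209 ± 105 bp in the longest class. The distance from the end of H3K4me1 to the 3′ end of the gene grew less, from 302 ± 11.4 to 938 ± 80.0 bp.

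Genes with a single mark differed at these edges. Only oriented genes enter here, which are 2690 (30.2%) of the genes with H2A.Z only and 91.0% of those with both. In such genes with H2A.Z only, the H2A.Z block ended later than in genes with both at every length from 1000 bp. It ended at 695 ± 4.51 against 519 ± 9.99 bp in the 1000 to 1500 bp class and at 860 ± 2.60 against 619 ± 2.08 bp at 2000 to 3000 bp. At 4000 bp and over the values were 743 ± 15.5 and 648 ± 2.65 bp. The 3 libraries of the 2 classes did not overlap in any of these. In genes with H3K4me1 only, H3K4me1 began at 847 ± 7.75 bp at 2000 to 3000 bp (n = 72 genes) against 800 ± 13.4 bp beside H2A.Z. It began at 1069 ± 30.1 against 846 ± 12.9 bp at 3000 to 4000 bp (n = 39 genes), and at 651 ± 3.61 against 717 ± 13.3 bp at 1500 to 2000 bp (n = 29 genes). The direction thus changed with length, and H3K4me1 started nearer to the 5′ end where H2A.Z was missing in the class of 1500 to 2000 bp alone among the 4 with at least 29 genes. These comparisons set classes of genes side by side that were chosen by the same peaks, so no test was made.

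**Figure D4:**
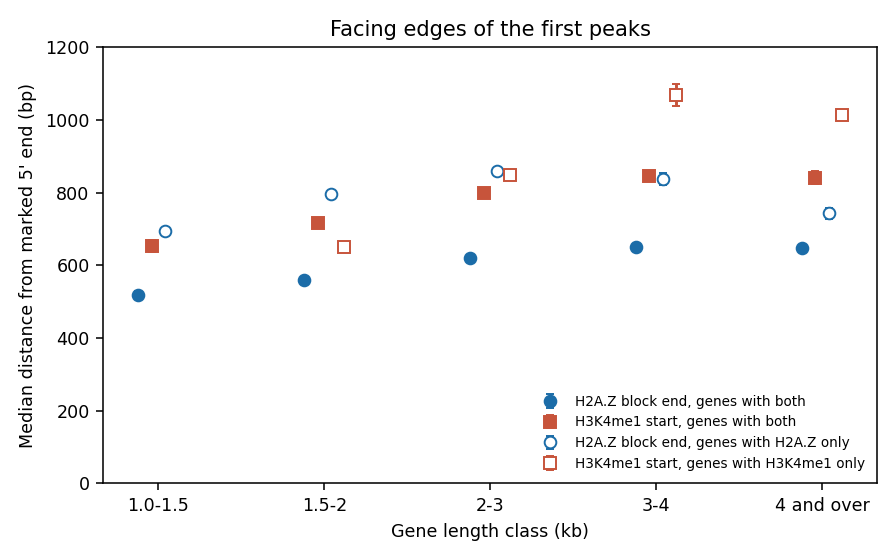
Median distance in bp from the marked 5′ end (y axis) to the end of the H2A.Z block nearest that end (circles) and to the start of H3K4me1 (squares), by gene length class in kb (x axis); filled symbols are genes with both marks, open symbols genes with a single mark, and bars are the SD of 3 libraries. From 2 kb upward the filled circles lie between 619 and 651 bp and the filled squares between 800 and 846 bp.

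The bases between the facing edges were not bare. H3K4me3 peaks covered 65.3% ± 4.33 of the gap bases (SD over 3 libraries) and H3K4me2 peaks 68.8% ± 2.40. On the H2A.Z side of the gap, 93.7% ± 0.331 of bases in the H2A.Z blocks were under H3K4me3 and 68.5% ± 1.25 under H3K4me2. On the other side, 3.68% ± 0.131 of bases in the H3K4me1 blocks were under H3K4me3 and 16.5% ± 3.30 under H3K4me2. Because orientation required an H3K4me3 summit near 1 end, the H3K4me3 shares of these genes are partly set by that choice.

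Whether the marks avoided each other was then measured within the bodies of the 9403 genes with both. H2A.Z covered 17.2% and H3K4me1 47.9% of their bases. Had each mark been placed in each body without regard to the other, 7.36% ± 0.373 of bases would lie under both (SD over 9 pairs). The measured share was 0.268% ± 0.0262, a ratio of 0.0364 ± 0.00209, with the 9 pairs between 0.0328 and 0.0387. The ratio was 0.0566, 0.0675, 0.0392, 0.0288 and 0.0327 in the length classes from 1000 bp upward. Since the marks have different places along genes, this ratio includes their difference in position. H3K4me1 was therefore compared between bins with H2A.Z on at least 50% of their bases and all other bins at the same relative place. This used 20 bins per oriented gene and 6 length classes. Bins follow relative position, while the hand-over lay at a similar distance in bp, and the class from 4000 bp is open-ended. Some difference in position may thus remain in this comparison. Bins with H2A.Z on at least 50% of their bases had 1.04% ± 0.131 of bases under H3K4me1. Matched bins with H2A.Z on under 50% of their bases, or on none, had 12.3% ± 0.761. The ratio was 0.0844 ± 0.00596, with all 9 pairs between 0.0757 and 0.0939. Within genes with both marks the values were 1.59% ± 0.158 and 12.8% ± 0.616, a ratio of 0.124 ± 0.00740. With bins of any H2A.Z base set against bins of none, chosen after seeing the data, the position-matched ratio was 0.137 ± 0.00587. At bins matched in this way H3K4me1 was less frequent where H2A.Z covered at least 50% of the bin, in all 9 pairs. The bins were not matched for H3K4me3, another state of the same lysine. H3K4me3 covered 93.7% ± 0.331 of bases in H2A.Z blocks and 3.68% ± 0.131 in H3K4me1 blocks. Less H3K4me1 at H2A.Z thus cannot be told apart from less H3K4me1 at H3K4me3, and this was not tested. The size of the first ratio depended on the peaks used: it was 0.0202 for peaks above the median score of their library, 0.0799 without the 500 bp nearest to either gene end and 0.0880 for the authors' regions for the whole series. The position-matched ratio was 0.127 with those regions and 0.0736 for the peaks above the median score.

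Some genes with both did share bases. In 11.4% ± 0.856 of genes with both, a pair of libraries shared at least 1 base in the body. In 6784 of the 9403 genes (72.1%) no pair did, and in 199 (2.12%) all 9 pairs did. In 19 genes all 9 pairs shared at least 150 bp.

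The classes also differed in features that played no part in the calls. H3K4me3 was called in 98.5% ± 0.127 of genes with both marks, 58.3% ± 0.170 of genes with H3K4me1 only, 47.1% ± 0.742 of genes with H2A.Z only and 5.69% ± 0.287 of genes with neither (SD, n = 3 libraries). H3K4me2 was called in 96.8% ± 0.431 of genes with both and 61.7% ± 1.72 of those with H2A.Z only. Ser2P polymerase, the elongating form, was called in 69.0% ± 2.04 of genes with H3K4me1 only and 62.5% ± 4.49 of genes with both, against 30.5% ± 2.28 of genes with H2A.Z only and 12.4% ± 1.19 of genes with neither. Total polymerase stood at 64.0% ± 1.35, 53.8% ± 2.04, 34.7% ± 1.63 and 11.2% ± 0.475 in the same order. Ser2P in the H2A.Z-only class did not reach the range of either H3K4me1 class in any library. Within genes of 1500 to 3000 bp Ser2P was called in 74.9% ± 2.18, 59.0% ± 4.23, 33.6% ± 2.53 and 15.9% ± 1.15, so the order was the same among genes of like length. WDR5A-HA was called in 67.8% ± 4.94 of genes with both, 54.2% ± 0.341 with H3K4me1 only and 40.0% ± 1.78 with H2A.Z only.

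Genes that encode the H2A.Z machinery were themselves mostly marked by both. Of 14 genes for H2A.Z proteins and subunits of the SWR1 and INO80 remodelling complexes, 8 carried both marks (57.1%, against 34.3% of all genes). Another 2 carried H2A.Z only, 1 neither and 3 had calls that did not repeat. The members with both were 1923 to 9153 bp long. Over all genes the share with both was 20.8% at 1500 to 2000 bp and 75.1% from 4000 bp, so length is not separated from function here. PIE1, the ATPase of SWR1, had 7.27%, 6.76% and 7.09% of its 9153 bp under H2A.Z and 84.4%, 75.8% and 84.2% under H3K4me1, with no shared base in any pair. INO80, the ATPase of its complex, was alike, at 6.51% ± 0.282 and 79.3% ± 7.20. In the shorter genes of the SWR1 subunits the marks were more even: YAF9A had 28.0% ± 1.02 under H2A.Z and 25.6% ± 3.50 under H3K4me1, and YAF9B 30.6% ± 5.83 and 30.3% ± 3.02. SWC2 and SWC4 had 16.4% ± 1.43 and 22.7% ± 1.17 under H2A.Z, and 38.6% ± 10.7 and 41.4% ± 3.71 under H3K4me1. The actin-related genes ARP4 and ARP5 had 15.0% ± 0.823 and 14.7% ± 0.878 under H2A.Z against 62.3% ± 4.32 and 58.6% ± 5.32 under H3K4me1. The H2A.Z-only members were ARP6, a SWR1 subunit, with 34.5%, 30.9% and 28.9% of the body under H2A.Z, and the H2A.Z gene HTA8 with 38.8%, 35.8% and 42.0%. The H2A.Z genes HTA9 and HTA11 had 40.2% ± 2.05 and 43.3% ± 3.30 under H2A.Z, and H3K4me1 in replicate 2 alone, so they fell outside the classes. The same held for SEF, a SWR1 subunit, with 52.6% ± 1.17 under H2A.Z and H3K4me1 at 27.4%, 0% and 19.9%. HTA4 had no peak of either mark.

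Of 18 genes for H3K4 methyltransferases, their partners and H3K4 demethylases, 14 carried both marks (77.8%, against 34.3% of all genes). Their median length was 5416 bp against 2078 bp over all genes, and among all genes of 4000 bp and over 75.1% carried both, so the count is near that of genes of like length. ATXR3, a methyltransferase known for H3K4me3, had 5.73%, 5.54% and 4.60% of its 11182 bp under H2A.Z and 84.9%, 78.3% and 84.3% under H3K4me1. ATXR7, ATX1 and ATX2 had 71.6% ± 7.30, 61.1% ± 4.65 and 74.1% ± 8.26 under H3K4me1 and 5.14% ± 0.265, 11.2% ± 0.396 and 8.65% ± 0.483 under H2A.Z. ATX3, ATX4 and ATX5 followed at 31.7%, 63.4% and 56.8% under H3K4me1. The demethylase genes LDL3, FLD, LDL1 and LDL2 had 78.5%, 48.1%, 39.8% and 36.6% under H3K4me1, and JMJ14 and JMJ18 had 66.8% and 32.9%. RBL, which encodes a subunit of the COMPASS methyltransferase complex, had 25.5% ± 1.01 under H2A.Z and 39.5% ± 8.93 under H3K4me1. The exceptions were WDR5A, a further COMPASS subunit, with H2A.Z on 40.8%, 39.6% and 40.3% of the body and no H3K4me1, and the demethylase gene JMJ15 with H2A.Z on 20.7%, 14.8% and 19.9%. WDR5B and ASH2R had H2A.Z in every library and H3K4me1 in 1 and 2 of the 3.

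All 17 large genes of transcription, RNA processing and signalling carried both marks, against 34.3% of all genes and 75.1% of those of 4000 bp and over. The list has a median length of 9965 bp, so the count is to be read against the share of long genes. Its members had medians of 5.48% of the body under H2A.Z and 75.04% under H3K4me1, against 21.2% and 0% over all genes. TOR, a kinase that ties growth to nutrients, had 2.35%, 2.70% and 2.09% under H2A.Z and 78.5%, 88.5% and 90.4% under H3K4me1. NRPB2, a large subunit of RNA polymerase II, had the most H2A.Z of the list, 8.46% ± 1.09, with 76.2% ± 1.89 under H3K4me1. Of 13 genes often used as expression references, 6 carried both (46.2%). PP2AA3, a phosphatase subunit, had 10.3% ± 0.0569 and 64.1% ± 6.66, and UBC21, a ubiquitin-conjugating enzyme, 33.0% ± 2.60 and 17.5% ± 3.15. The beta-tubulin gene TUB2 carried H3K4me1 only, on 16.1%, 18.4% and 17.5% of the body. Of 14 cytosolic ribosomal protein genes, 2 carried both (14.3%), RPL3A and RPL4A carried H3K4me1 only and none H2A.Z only, while 9 had calls that did not repeat. Their median cover was 6.19% for H2A.Z and 28.1% for H3K4me1. RPL3A had 42.5%, 40.7% and 46.4% under H3K4me1. RPS6A had 47.2% ± 3.42 under H3K4me1 and H2A.Z in replicate 2 alone, and RPS5A had 18.22% ± 3.43 under H2A.Z. Ribosomal protein, tubulin and light-harvesting genes have near-identical copies elsewhere in the genome, so reads may have been split or dropped there and their missing peaks are uncertain.

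Stress-inducible, defence and auxin-response genes carried H2A.Z only more often than genes overall. The median lengths of these lists were 1547.5, 2675.5 and 1556.5 bp. Of all genes, 57.8% at 1000 to 1500 bp, 41.3% at 1500 to 2000 bp and 25.4% at 2000 to 3000 bp carried H2A.Z only. Of 24 genes induced by heat, cold or drought, 16 carried H2A.Z only (66.7%, against 32.5% of all genes) and 2 both. HSP18.2, a small heat shock protein, had 75.9%, 79.4% and 79.0% of its 978 bp under H2A.Z and no H3K4me1. The 2 with both were the chaperone genes HSP70 and HSP90.1. HSP90.1 had 13.2% ± 0.815 under H2A.Z and 42.6% ± 7.44 under H3K4me1. Of 18 defence genes 11 carried H2A.Z only (61.1%) and 4 both (22.2%). WRKY53, a transcription factor, had 60.4%, 60.1% and 60.2% under H2A.Z, and ICS1, which makes the precursor of salicylic acid, had 28.8% ± 1.66 and 39.4% ± 10.7. Of 12 Aux/IAA genes, repressors of the auxin response, 7 carried H2A.Z only (58.3%) and 1 both. IAA1 had 77.5%, 75.1% and 77.4% under H2A.Z, and IAA12, the gene with both, had H3K4me1 on 38.1%, 18.5% and 44.3%.

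No floral organ MADS-box gene (12), seed storage or embryo gene (13) or photosynthesis gene (19) carried H3K4me1 in all libraries, against 36.4% of all genes. H2A.Z only was called in 6 (50%), 8 (61.5%) and 7 (36.8%) of them, against 32.5% of all genes, so the photosynthesis count is near the share over all genes. AP3, which specifies petals and stamens, had 32.7% ± 4.17 under H2A.Z. SESA1, a seed albumin gene of 703 bp, had 52.6%, 72.0% and 48.2%, and LHCB4.2, a light-harvesting protein of photosystem II, had 73.4%, 74.7% and 64.4%. The traces of H3K4me1 in these lists came from single libraries: RCA had 10.8% in replicate 3, SEP1 7.09% in replicate 2 and CRA1 14.5% in replicate 1. The floral list has a median length of 3744 bp, and 62.7% of all genes of 3000 to 4000 bp carried both marks. Its median H2A.Z cover was low too, at 5.61%. Photosynthesis genes were also low in H2A.Z, with a median of 8.12%, and 5 of the 19 had neither mark. Their median length was 1510 bp, and that of the seed list 2073 bp. Of all genes, 3.63% at 1000 to 1500 bp, 22.8% at 1500 to 2000 bp and 50.3% at 2000 to 3000 bp were called for H3K4me1. Of 16 flowering time genes 6 carried both (37.5%) and 4 H2A.Z only (25%), near the 34.3% and 32.5% of all genes, with GI at 13.2% ± 0.806 under H2A.Z and 73.3% ± 2.00 under H3K4me1, and LFY at 39.6% ± 0.971 under H2A.Z alone. Of 10 clock genes 5 carried both (50%) and 2 H2A.Z only (20%), a small list in which each gene moves the share far. ELF4, of 660 bp, had H2A.Z on 84.1%, 71.5% and 82.7%, while ELF3 had H3K4me1 on 62.6%, 53.3% and 60.2% and H2A.Z in 2 of 3 libraries. The lists differ in length as well as in function, and these counts do not separate the 2.

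The strongest examples of each class show the layout in single genes. Among genes of at least 1000 bp with H2A.Z only, the 6 with the highest H2A.Z fold enrichment of the top peak were MEE23, AT3G05410, AT1G32760, AT2G21130, AT2G30960 and AT5G01910. MEE23, named for arrest of embryos in its mutant, had folds of 9.38, 9.50 and 9.89 and H2A.Z on 46.3% ± 0.568 of its 3559 bp. In replicate 1 its top peak lay on chromosome 2 from 14674104 to 14675298 (TAIR10). AT3G05410 had folds of 9.92, 9.19 and 9.25 with H2A.Z on 13.6% ± 3.22 of 6863 bp. The other 4 genes were 1084 to 1389 bp long with 69.6% to 73.7% of the body under H2A.Z and mean folds of 8.78 to 8.94.

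The 6 genes with H3K4me1 only and the highest H3K4me1 fold were UAP56a, RIF10, UAP56b, CLPC1, AT5G43960 and AT5G45430. UAP56a and UAP56b, RNA helicases of messenger RNA export, had folds of 4.45, 3.39 and 4.42 and of 4.15, 3.28 and 3.48. They are near-identical neighbours, so their peaks and their lack of H2A.Z are uncertain. RIF10, a polynucleotide phosphorylase of chloroplasts, had folds of 4.30, 3.65 and 3.11 and H3K4me1 on 66.5% ± 0.872 of 6011 bp. CLPC1, a chaperone of the chloroplast stroma, had folds of 3.86, 3.49 and 3.52. Its H3K4me1 began 1024, 894 and 912 bp from the marked 5′ end and covered 64.8% ± 5.29 of 5229 bp, and its top peak in replicate 1 lay on chromosome 5 from 20716836 to 20719657 (TAIR10). AT5G43960 and AT5G45430 had mean folds of 3.53 ± 0.762 and 3.53 ± 0.472. Replicate 2 was the lowest in 5 of these 6 genes, and replicate 3 in RIF10.

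The genes with both marks and the highest folds of each together were CARB, AT1G19110, AT1G44960, EDD1, LACS8 and LAF3. In CARB, the large subunit of carbamoyl phosphate synthetase, H2A.Z blocks ran from 73 to 902, 77 to 877 and 60 to 666 bp, and H3K4me1 began at 1103, 1180 and 1129 bp. In replicate 1 the top H2A.Z peak lay on chromosome 1 from 10468029 to 10468857 and the top H3K4me1 peak from 10469722 to 10471270 (TAIR10). Its H2A.Z folds were 7.27, 8.78 and 8.78 and its H3K4me1 folds 3.94, 3.23 and 3.07. AT1G19110, AT1G44960 and EDD1, a glycyl-tRNA synthetase, likewise shared no base in any pair, with H2A.Z on 16.9%, 24.7% and 5.29% and H3K4me1 on 58.1%, 51.4% and 69.7% of the body. LACS8, a long-chain acyl-CoA synthetase, was the exception, with 8 to 275 bp shared in every pair. LAF3, named for a far-red light phenotype, shared 0 to 140 bp.

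The 6 genes with the largest share of the body under both at once were AT5G60190, AT2G03110, RPL23AB, AT4G17760, AT4G26220 and AT1G69840. They were chosen for this overlap, so it is given as a description. In AT5G60190 H2A.Z covered 82.1%, 79.2% and 82.4% of 1812 bp, and H3K4me1 47.6%, 16.1% and 47.3%, all of it inside the H2A.Z block. In replicate 1 the H2A.Z peak lay on chromosome 5 from 24234466 to 24235952 and the H3K4me1 peak from 24235007 to 24235868 (TAIR10). Its H2A.Z folds were high at 7.39, 7.26 and 6.98, and its H3K4me1 folds low at 2.29, 1.82 and 1.77. AT2G03110 had 26.5% ± 10.1 of the body under both and 234 to 872 bp shared. The ribosomal protein gene RPL23AB had 24.6% ± 16.4 and 5 to 667 bp shared, with its H2A.Z ending at 1371, 780 and 1505 bp, so replicate 2 differed from the others. AT4G17760 had 24.3% ± 5.97, AT4G26220, which encodes a caffeoyl-CoA O-methyltransferase, 22.8% ± 15.3 and AT1G69840 21.3% ± 4.46. All 6 were between 1505 and 2335 bp long.

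**Figure D5:**
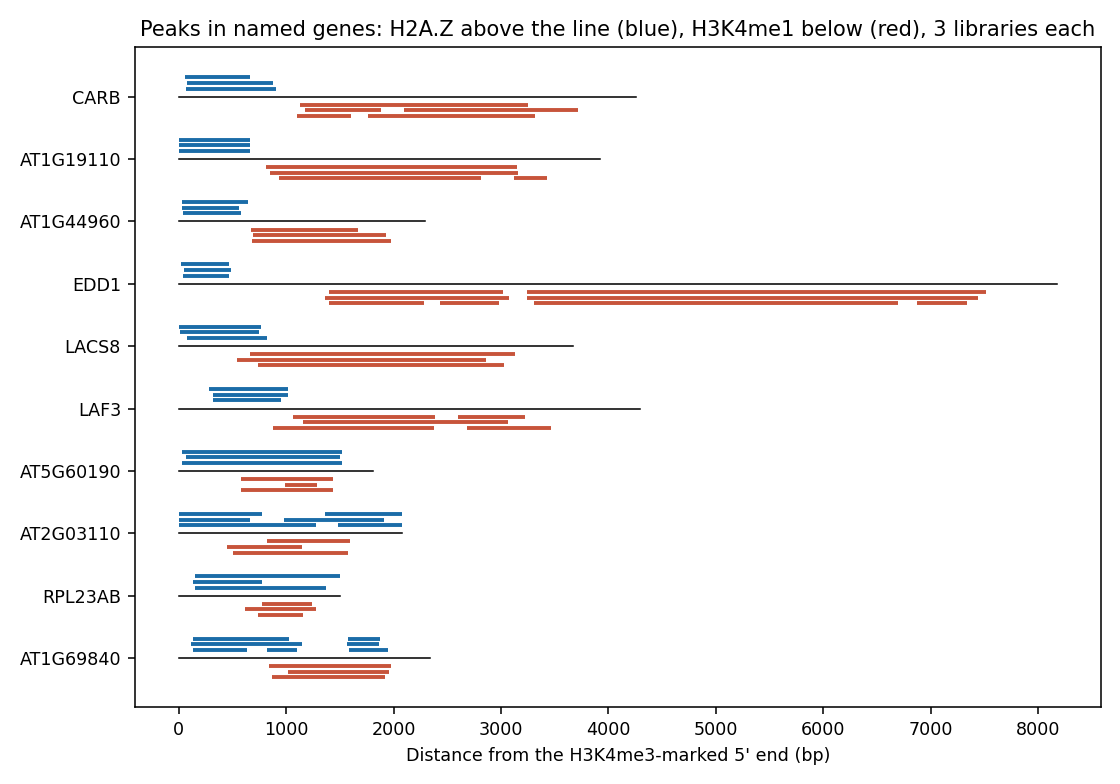
Peaks along 10 oriented genes, by distance in bp from the H3K4me3-marked 5′ end (x axis); black lines are gene bodies, blue bars above them H2A.Z peaks and red bars below them H3K4me1 peaks, 1 row of bars per library. The first 6 genes have the highest folds of both marks and show blue followed by red, and in the last 4, chosen for their overlap, red lies within or beside blue.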

How the data were processed

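Seedling chromatin was measured by ChIP-seq in 3 libraries per antibody. The submitters' processing notes name fastp for trimming, Bowtie2 2.3.3 with TAIR10 for alignment, MACS2 2.2.5 for peaks and deepTools. The control library of each peak call is not given in these sources. For each peak the deposited lists hold positions, a summit, a score, a fold enrichment (a ratio over the caller's background) and −log10 p and q values. The lists give no read totals, so depth is unknown. Peaks were used as the authors called them, per library, on chromosomes 1 to 5. The authors' merged regions for the whole series served as an alternative.

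Peaks of a library were merged and overlapped per base with Python 3.11.15, numpy 2.4.6 and pandas 2.3.3. Bounds of 27432 genes came from the RefSeq table of TAIR10.1, which gives no strand. Of 15948 summits in H3K4me3 replicate 1, 96.8% fell within its genes, and 67.8% and 69.8% did so once the genes were shifted by 1000 and 2000 bp. Annotated 5′ and 3′ ends, exons, introns and sequences were not used here. A mark was called at 150 bp of the body in all 3 libraries, by gene and not by peak, so a peak can count for 2 neighbouring genes. Exact permutation tests over libraries (scipy 1.17.1) compared summit position, body cover and peak width, and the other values are descriptions with the SD over 3 libraries or 9 pairs. The body ratio was checked on simulated peaks, with 1 block per mark placed apart or independently in genes away from other genes. The position-matched ratio was computed there but not held to an expected value. Members of 13 gene lists were matched by locus identifier. Named genes were the 6 leading genes of at least 1000 bp by fold per single-mark class and by joint fold rank, the 6 with the largest share of the body under both, all members of the first 2 lists and the member with most cover of each mark in the others. A few further genes were named where a list held 5 or fewer of a kind. The marks, genes and lists were chosen with earlier results of these data known. Alternatives changed the peak score, the call rule, the gene set, the gene ends, the peak source and the libraries.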

Additional observations from a re-analysis of the deposited data

How the results depend on the processing

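Of 107 alternatives over 10 results, 81 were kept and 26 moved. Counts were kept within 1.5 times the main value, and shares and ratios within their SD. Differences in summit position, body cover and peak width were judged by sign alone, and none changed sign. Their sizes shifted, to 0.320, -4.04 percentage points and 733 bp for peaks above the median score, against 0.368, -8.76 and 333 bp. Without 500 bp at either end the summit difference was 0.203. The order of genes with H2A.Z only (8916) and with both (9403) turned in some settings. For peaks above the median score, 5489 genes had H2A.Z only, 765 H3K4me1 only and 2706 both, 0.308% of H3K4me1 and 0.40% of H2A.Z bases were shared, and the body and position-matched ratios were 0.0202 and 0.0736. With the regions given for the whole series these were 533 genes with H3K4me1 only, 1.52%, 1.76%, 0.0880 and 0.127. Among genes at least 500 bp from the next gene, 3176 had H2A.Z only, 32 H3K4me1 only and 1384 both, out of 7387 such genes, and the position-matched ratio was 0.0697. A call in at least 2 libraries gave 538 genes with H3K4me1 only. Counting peaks with at least 50% of their length shared gave 1.36% of H3K4me1 and 0.40% of H2A.Z peaks. The body ratio was 0.0387 with a call at 10% of the body and 0.0799 without 500 bp at either end. Chosen after seeing the data, the position-matched ratio was 0.124 in genes with both and 0.137 with H2A.Z on any base of a bin, and 4495 genes of 1500 to 3000 bp had both. The cause of these moves was not tested, other than fewer genes or peaks entering by construction. Leaving out each library in turn gave 9080 to 9319 genes with H2A.Z only, 357 to 384 with H3K4me1 only and 9418 to 10089 with both, 0.807% to 0.906% and 0.880% to 1.04% of bases shared, body ratios of 0.0356 to 0.0456, position-matched ratios of 0.0814 to 0.0875, summit differences of 0.367 to 0.369, cover differences of -9.14 to -8.04 percentage points and width differences of 318 to 362 bp. The deviations of same-numbered libraries of the 2 marks had r of 0.0119, 0.0155 and 0.0115 over 9403 genes. Differently numbered libraries had r of -0.00851 to -0.00282. Values this small cannot decide whether the numbers pair the libraries, and pairing by culture is not stated and was not tested. With the replicate block the ratios were 0.0364 and 0.0841, and the exact sign-flip p of the 3 tests was 0.25, the smallest possible. Of 1248 values for 78 named genes, 132 moved by more than their SD. Orientation by an annotated strand was not run, and regions for the whole series gave no summit position or peak width. Depth is unknown, and a missing peak may reflect the caller's threshold.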
